A study of Mus musculus with 6 samples.

Results

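The genes described here encode the proteins that bring glucose into the cell, break it down to pyruvate and decide what becomes of the pyruvate. They were chosen by name: 35 mouse genes for glucose and lactate transporters, glycolytic enzymes, the regulatory kinases of phosphofructokinase (PFKFB) and of pyruvate dehydrogenase (PDK), and pyruvate dehydrogenase itself. Of the 35, 32 had at least 1 probe set named for that gene alone, 67 probe sets in all among the 45101 on the array. Gpi1, Pfkfb1 and Eno1 had none and were not analysed here. Of the 32 genes, 27 were bright enough to be tested among 10960 genes, 4 (Eno2, Pdk2, Pdk4 and Slc16a7) were too dim, and Gapdh was read by control probe sets alone.

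The study measured gene expression in peripheral blood neutrophils of mice lacking phd3 and of wild-type mice, both on a C57 background, with 6 Affymetrix arrays. The phd3 null group had 3 samples and the wild-type group had 3, each from an individual mouse, purified by negative magnetic selection, then cultured at 3% oxygen (hypoxia) over 4 h. Since all 6 samples were hypoxic, the genotypes are compared only under low oxygen, and no normoxic sample was analysed here. How the null allele was made, and the age of the mice, are not given in the sources used here. Phd3, now named Egln3, encodes an oxygen-dependent prolyl hydroxylase.

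Glycolysis splits glucose into pyruvate and yields ATP without oxygen, and neutrophils, which have few active mitochondria, draw most of their energy from it. Under hypoxia the transcription factor HIF raises many genes of this pathway, glucose transporters and lactate dehydrogenase A among them. It also raises PDK1, which switches off pyruvate dehydrogenase and so keeps pyruvate out of the mitochondria. PHD enzymes mark HIF alpha subunits for destruction when oxygen is present, and PHD3 is itself a HIF target.

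Signals are MAS5 intensities on a linear scale, and differences are on the log2(signal + 16) scale. Egln3 was at 87.2, 29.6 and 73.5 in phd3 null samples 1 to 3, against 2088, 1733.9 and 327 in wild-type samples 1 to 3. All null samples lay below all wild-type samples. The log2 difference was -3.85 (SE 0.65), with an adjusted p of 0.9996 in limma over all genes and of 0.00140 once the replicate number was added to the fit as a block. The other probe set of Egln3 was at 39.7, 3.6 and 73.9 in null samples, against 411.3, 300 and 120.7 in wild-type samples (log2 difference -2.52). With every probe set in the limma fit and the block, the adjusted p was 0.021 for the brighter probe set and 0.348 for the other. Sample numbers run from 1 to 3 in each genotype, and same-numbered samples share a code in their source labels, so a number is called a replicate and a null and wild-type sample of 1 number a pair. Replicate 3 was unlike the rest in both genotypes: its null array had a median correlation with the remaining arrays of 0.739 and its wild-type array one of 0.788, where the 4 arrays of replicates 1 and 2 had 0.838 to 0.866. The ratio of 3' to 5' Gapdh signal, a measure of RNA integrity, ran from 0.726 to 0.805 in null arrays, against 0.659 to 0.746 in wild-type arrays.

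No member of the pathway passed the test between genotypes. Limma called 0 of the 27 tested members at an adjusted p under 0.05, against 0% of all 10960 genes, and 0 members had an unadjusted p under 0.05, against 1.74% of all genes. With the replicate block it called 0 members and 0.0182% of all genes, and 1 member, Tpi1, had an unadjusted p under 0.05, against 5.62% of all genes. The members' log2 differences ran from -0.32 for Ldhb to 0.73 for Aldoc, and 22 were above 0 and 5 below. That is 81.5% above 0, beside 49.4% of all tested genes, and the median was 0.21 beside -0.0065 over all tested genes. This median moved when single arrays were left out, which leaves a replicate unbalanced. It was 0.62 without null sample 3, 0.38 without wild-type sample 1 and -0.31 without wild-type sample 3. Without null sample 1 it was -0.033, and without null sample 2 it was -0.040. With both arrays of a replicate left out it stayed above 0, at 0.10, 0.15 and 0.17 without replicates 1, 2 and 3.

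The pairs did not run together. In pair 1, 74.1% of members were higher in the null sample, beside 49.8% of all tested genes. In pair 2 the share was 77.8%, beside 49.5%, and in pair 3 it was 48.1%, beside 49.6%. The median member difference was 0.26, 0.33 and -0.15 in pairs 1 to 3. Members higher in all 3 pairs numbered 5 (Pfkl, Pfkp, Tpi1, Ldha and Pdk1), where 12.6% of all genes did so, and 0 members were lower in all 3, where 13.1% of all genes did so. In 10 members the null sample was higher in pairs 1 and 2 and lower in pair 3, a pattern seen in 12.5% of all genes. For 0 of the 27 members did all null samples lie above all wild-type samples, against 3.9% of all genes, and for 0 did they lie below, against 3.02%, or 6.92% in either direction.

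**Figure D1:**
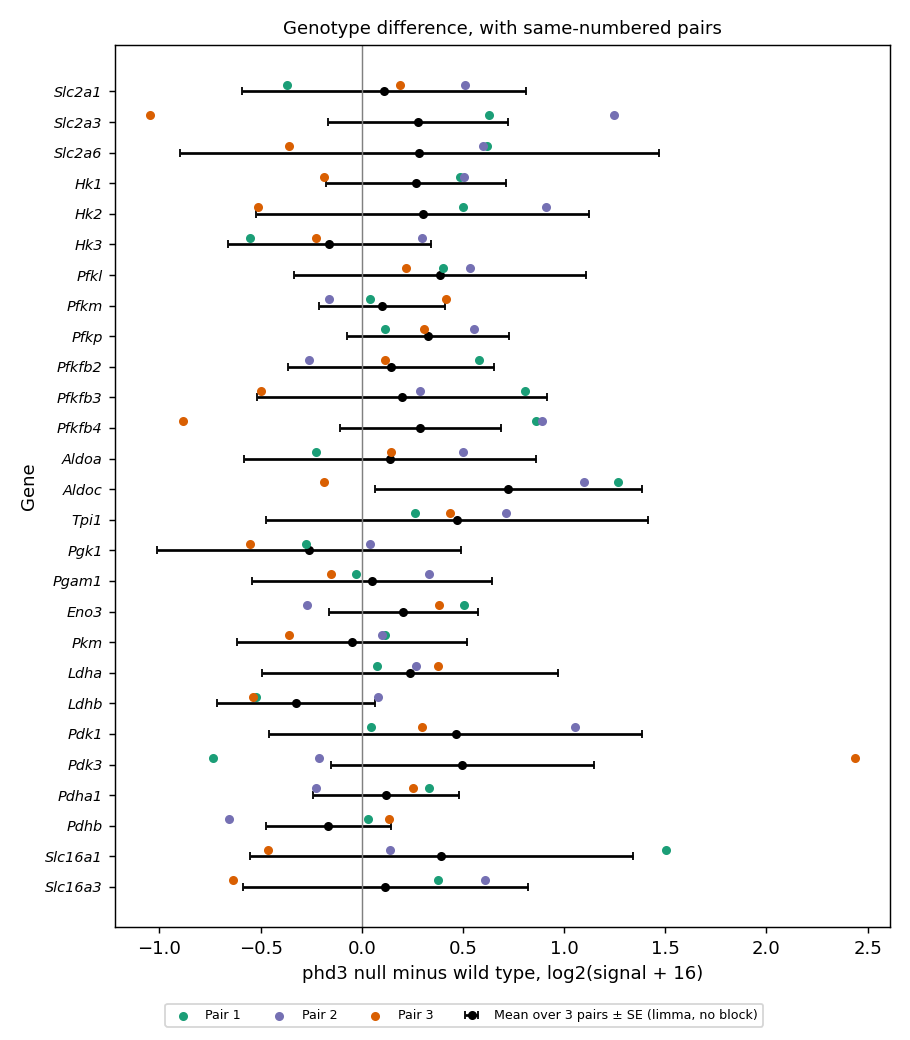
Genotype differences (phd3 null minus wild type, x axis, log2(signal + 16)) of the 27 tested members. Black points with bars are the mean over 3 pairs with the SE of the limma fit without a block. Coloured points are the 3 same-numbered pairs. In this fit the bar of every member other than Aldoc spans 0. With the SE of the replicate block, not drawn, those of Tpi1, Pdk1, Pfkl, Pfkp, Hk1, Hk2, Ldha, Pgk1, Ldhb and Slc16a1 would not either. Tpi1, for one, was at 0.47 with an SE of 0.21, though no member passed after adjustment. Pair 3 often lies on the other side of 0 from pairs 1 and 2.

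Most members' signals went with the replicate number, while no member passed between genotypes. The members were listed with low Ldha, Pdk1 and Gapdh in replicate 3 of these data already known, so the shares that follow are descriptions. In an F test of the replicate number in limma, adjusted for genotype, 17 of 27 tested members passed at an adjusted p under 0.05, or 63%, against 11.1% of all tested genes. At an unadjusted p under 0.05 it was 19 of 27, against 22.7% of all tested genes. In 16 of these 17 both replicate 3 arrays lay below the other 4 arrays, where 6.83% of all genes were called in that form. In the remaining one, the lactate transporter gene Slc16a1, both lay above, where 3.22% of all genes were called in that form. Whether called or not, both replicate 3 arrays were below the other 4 in 16 members, against 16.9% of all genes, and above in 3 (Pfkfb2, Pdha1 and Slc16a1), against 18.5%. The member median of replicate 3 minus replicates 1 and 2 was -1.27 in log2, beside 0.095 over all tested genes, and the difference was under -1 in 59.3% of members, beside 9.81% of all genes. Without replicate 3 the same test called 0 members and 107 genes. Without the trend in limma's prior variance it called 0 of 10960 genes (smallest adjusted p 0.112), with an unadjusted p under 0.05 in 17 members, or 63%, and in 17.2% of all genes. The calls also depended on the probe set. With every probe set fitted, 15 members had 2 or more tested. All probe sets passed the replicate term for 3 of these (Pgk1, Slc2a1 and Tpi1). Only some passed for 6 (Aldoa, Hk1, Hk3, Pdk1, Pfkfb3 and Pfkl), and none for Pfkp (smallest adjusted p 0.052).

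**Figure D2:**
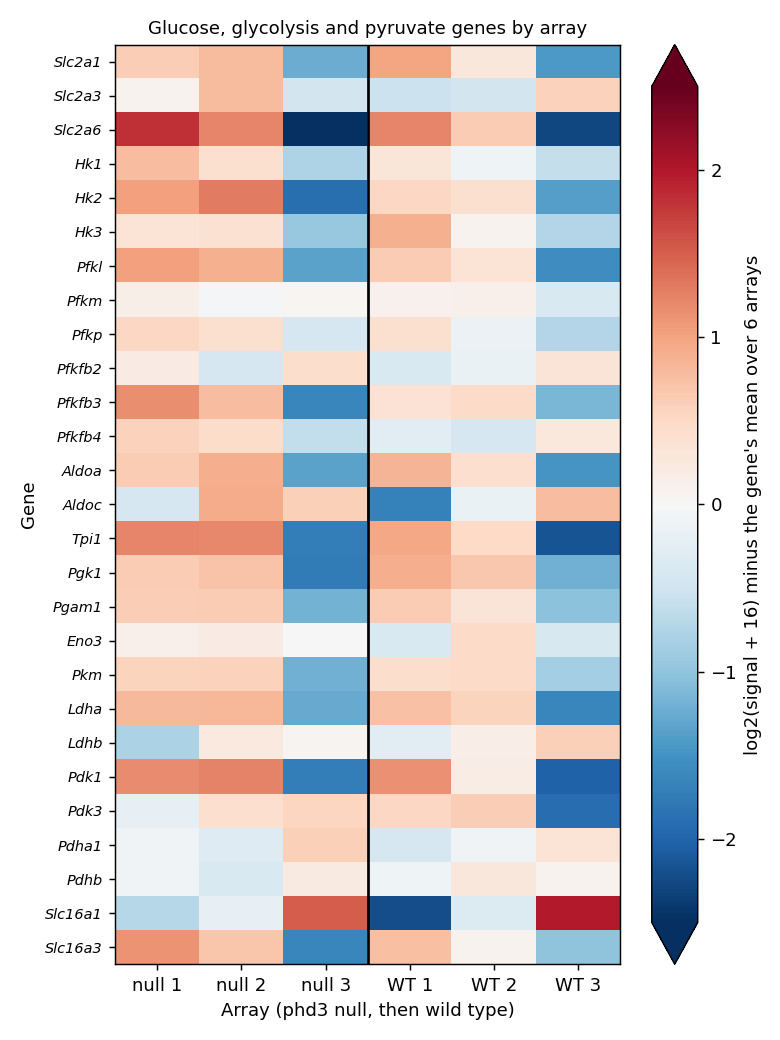
Deviation of log2(signal + 16) from each gene's own mean over the 6 arrays (colour) for the 27 tested members (rows) in phd3 null arrays 1 to 3 and wild-type arrays 1 to 3 (columns). The columns of replicate 3 are blue for most genes in both genotypes, with Slc16a1 red.

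**Figure D3:**
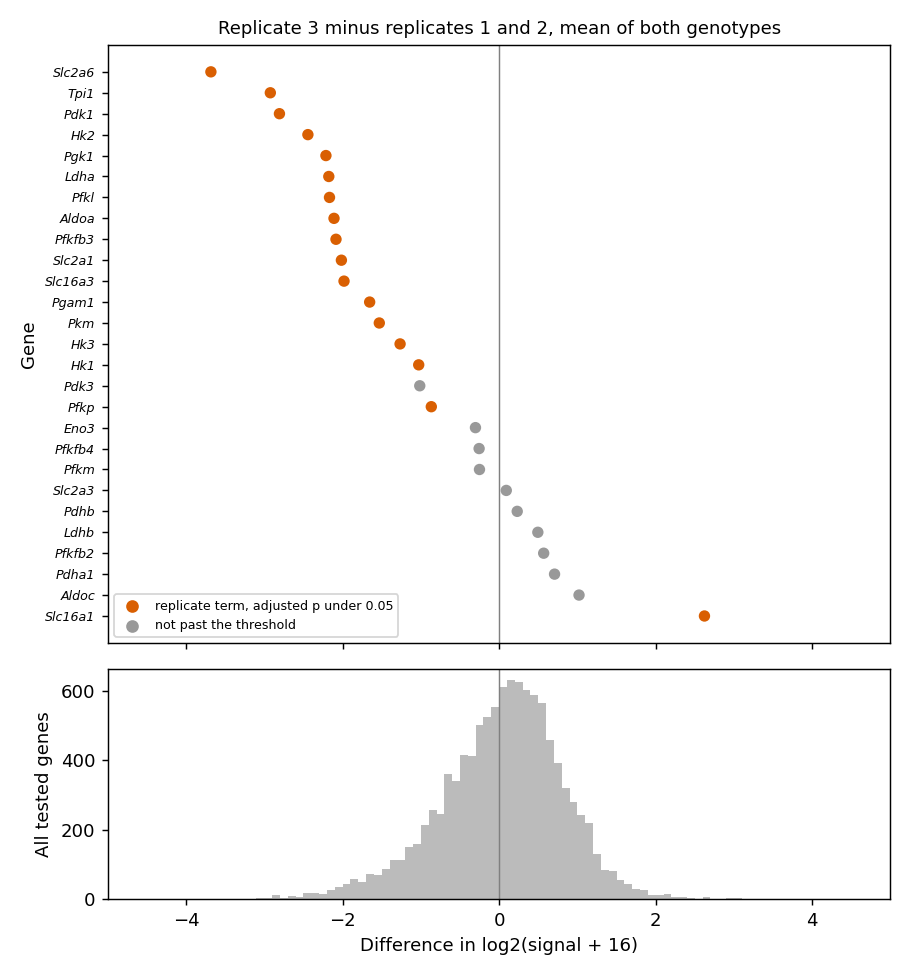
Upper panel: replicate 3 minus the mean of replicates 1 and 2, averaged over both genotypes, for each tested member, in orange where the replicate term passed. Lower panel: the same difference for all 10960 tested genes; the members run from -3.68 for Slc2a6 to 2.62 for Slc16a1.

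Among the glucose transporters, Slc2a1 encodes GLUT1, the widespread basal carrier, Slc2a3 encodes the high-affinity carrier GLUT3, and Slc2a6 encodes GLUT6, a carrier found on lysosomes. Slc2a1 was at 4220.9, 4781.5 and 1145.1 in null samples 1 to 3, against 5455.1, 3349.7 and 1003.5 in wild-type samples 1 to 3. The replicate 3 array was the lowest of each genotype, and the genotypes overlapped. The genotype difference was 0.11 (SE 0.70), and the replicate term passed (adjusted p = 1.22e-04), as it did for all 3 probe sets of the gene. Slc2a6 was at 489.3, 316.2 and 6.8 in null samples, against 313, 203.6 and 13.3 in wild-type samples. It had the lowest replicate 3 difference of the members, -3.68 in log2 (adjusted p = 2.32e-05), with replicate 3 near the bottom of the signal range. Slc2a3 did not follow them. It was at 2565.1, 4162.2 and 1744 in null samples, against 1651.9, 1745.2 and 3612.9 in wild-type samples, so its replicate 3 array was the lowest of the null group and the highest of the wild-type group. Its pair differences were 0.63, 1.25 and -1.04, its genotype difference was 0.28 (SE 0.45), and the replicate term gave an adjusted p of 0.798. All 4 probe sets of Slc2a3 gave a genotype difference between 0.28 and 0.36.

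Hexokinases trap glucose in the cell by phosphorylating it, and HK1, HK2 and HK3 are separate genes, HK2 being the inducible form and HK3 the form common in myeloid cells. Hk2 was at 2398.8, 2914.5 and 304.7 in null samples, against 1689.5, 1541.9 and 441.1 in wild-type samples. The null samples were above their partners in pairs 1 and 2 and below in pair 3, and both replicate 3 arrays were lowest. Its genotype difference was 0.30 (SE 0.82), and its replicate 3 difference of -2.44 (adjusted p = 6.75e-05) was the lowest of the 3 hexokinases. Hk1 was at 854.1, 652.6 and 279.6 in null samples, against 606, 454.8 and 320 in wild-type samples. It showed the same order of pairs as Hk2, with a genotype difference of 0.27 (SE 0.44) and a replicate 3 difference of -1.03 (adjusted p = 0.0244). Hk3 was at 554.6, 568.4 and 216.1 in null samples, against 820.4, 459.6 and 255.5 in wild-type samples. Its genotype difference of -0.16 (SE 0.50) came with a replicate 3 difference of -1.27 (adjusted p = 0.00826), and its other probe set gave a genotype difference of 0.16.

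Phosphofructokinase commits sugar to glycolysis, and its liver, muscle and platelet subunits come from Pfkl, Pfkm and Pfkp. Pfkl was at 1138.6, 1028.6 and 208.2 in null samples, against 859.3, 703.8 and 176.7 in wild-type samples. Every null sample was above its partner, by 0.40, 0.54 and 0.22, yet null sample 3 lay far below wild-type samples 1 and 2, so the groups overlapped (genotype difference 0.39, SE 0.72). Pfkp was at 965.5, 889 and 496.1 in null samples, against 889.4, 600.6 and 397.6 in wild-type samples, with pair differences of 0.12, 0.55 and 0.31. Of the other 2 probe sets of Pfkl, 1 gave 0.21 and 1 gave -0.27, and those of Pfkp gave -0.24 and -0.57, so the direction in null samples depended on the probe set. Pfkm was nearly level at 165.5, 144.1 and 152.9 in null samples, against 160.3, 162.8 and 110.5 in wild-type samples. The replicate term passed for Pfkl (adjusted p = 5.31e-05) and Pfkp (adjusted p = 0.0403), while Pfkm had an adjusted p of 0.867.

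PFKFB enzymes make and remove fructose 2,6-bisphosphate, the activator of phosphofructokinase, and PFKFB3 and PFKFB4 are known hypoxia-induced forms. Pfkfb3 was at 1069.8, 805 and 138.9 in null samples, against 603.7, 656.4 and 202.8 in wild-type samples. Both replicate 3 arrays were low, with a difference of -2.08 (adjusted p = 3.51e-04). Pfkfb4 was at 476.5, 439.6 and 199.5 in null samples, against 254.8, 229.6 and 381.6 in wild-type samples. As with Slc2a3, its replicate 3 array was lowest in the null group and highest in the wild-type group, and its pair differences were 0.86, 0.89 and -0.88. The genotype differences of Pfkfb3 and Pfkfb4 were 0.20 (SE 0.72) and 0.29 (SE 0.40). Pfkfb2 was at 60.1, 33.3 and 73.6 in null samples, against 35, 43.1 and 66.6 in wild-type samples. Its replicate 3 array was the highest of each genotype, but the replicate term did not pass (adjusted p = 0.820), and its 4 probe sets, 2 of them too dim to test, gave genotype differences from -0.39 to 0.43.

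Aldoa, Tpi1, Pgk1, Pgam1 and Pkm of the lower pathway were all lower in replicate 3. Aldoa encodes aldolase A, which splits the 6-carbon sugar, and Tpi1 encodes the isomerase that interconverts its products. Tpi1 was at 3390, 3345.5 and 422.3 in null samples, against 2823.4, 2031.5 and 307.5 in wild-type samples. Its replicate term had the smallest adjusted p of the members (2.27e-06), with a mean replicate 3 signal 0.126 times that of the other arrays. Every null sample was above its partner, by 0.26, 0.72 and 0.44, and the same held for the other 2 probe sets. The SE of its genotype difference of 0.47 was 0.94 without the block and 0.21 with it, where the unadjusted p was 0.0375 and the adjusted p was 0.880. Aldoa was at 5468.4, 6682.5 and 1391.5 in null samples, against 6394.6, 4724.9 and 1258.5 in wild-type samples, with a genotype difference of 0.14 (SE 0.72). Its 5 probe sets gave differences between 0.12 and 0.32. Aldoc, for the brain form of aldolase, was at 43.1, 134.1 and 102.9 in null samples, against 8.6, 54.1 and 119.4 in wild-type samples. Its genotype difference of 0.73 (SE 0.66) was the highest of the members, with pair differences of 1.26, 1.10 and -0.19, and its replicate 1 array was the lowest of each genotype.

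Pgk1 encodes phosphoglycerate kinase, the first ATP-making step. Its signals were 7394.2, 7847.8 and 1400.2 in null samples, against 8957.2, 7617.4 and 2059.4 in wild-type samples. It leaned the other way from Tpi1, with a genotype difference of -0.26 (SE 0.75) and pair differences of -0.28, 0.043 and -0.55. Pgam1, for the mutase that follows, was at 3949.3, 4040.3 and 1130.3 in null samples, against 4024, 3209.1 and 1258.7 in wild-type samples. Pkm, which encodes the pyruvate kinase of most tissues, was at 5498, 5592.9 and 1620.5 in null samples, against 5070.1, 5219.5 and 2083.6 in wild-type samples. For these 2 genes the genotype differences were 0.050 (SE 0.59) and -0.048 (SE 0.57), and the replicate term passed at adjusted p = 4.35e-04 and 0.00108. Gapdh, for the dehydrogenase between Tpi1 and Pgk1, was read by 3 control probe sets, all lowest in replicate 3. The brightest was at 9967.9, 9885.3 and 4022 in null samples, against 11362.6, 8927.5 and 5297.3 in wild-type samples, a genotype difference of -0.15 (SE 0.48) in a fit that kept the control probe sets. Eno3, for the muscle enolase, was at 106.2, 113.4 and 95.7 in null samples, against 70.2, 139.9 and 69.8 in wild-type samples, and Eno2 was dim, from 4.5 to 50 in null samples, against 13.6 to 21.1 in wild-type samples.

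Lactate dehydrogenase turns pyruvate into lactate and restores the NAD+ that glycolysis needs. Its A subunit (Ldha) is a known HIF target, and its B subunit (Ldhb) is the form of aerobic tissues. Monocarboxylate transporters carry the lactate across the membrane, MCT4 (Slc16a3) being the exporter of glycolytic cells and MCT1 (Slc16a1) the form that also takes lactate up. The promoters of these isoforms, and of Pdk1, are printed because the isoforms differed in replicate 3. They are the first start sites listed by RefSeq on build GRCm38.p6, from 250 bases before to 50 after the start, read 5′ to 3′ on the gene's strand. Capitals mark the core letters of a hypoxia response element, ACGTG or GCGTG, on either strand; the palindrome CACGTG holds ACGTG on both strands and counts as 2. The windows are chr7:46845554-46845853 (plus strand) for Ldha, chr6:142507908-142508207 (minus strand) for Ldhb, chr11:120948817-120949116 (plus strand) for Slc16a3, chr3:104638414-104638713 (plus strand) for Slc16a1 and chr2:71872974-71873273 (plus strand) for Pdk1.
Ldha: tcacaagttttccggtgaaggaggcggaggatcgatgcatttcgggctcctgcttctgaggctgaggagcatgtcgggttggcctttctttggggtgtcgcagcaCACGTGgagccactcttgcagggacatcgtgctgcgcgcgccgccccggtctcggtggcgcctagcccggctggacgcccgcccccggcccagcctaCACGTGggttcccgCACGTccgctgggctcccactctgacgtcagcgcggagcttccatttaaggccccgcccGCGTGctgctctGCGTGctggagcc
Ldhb: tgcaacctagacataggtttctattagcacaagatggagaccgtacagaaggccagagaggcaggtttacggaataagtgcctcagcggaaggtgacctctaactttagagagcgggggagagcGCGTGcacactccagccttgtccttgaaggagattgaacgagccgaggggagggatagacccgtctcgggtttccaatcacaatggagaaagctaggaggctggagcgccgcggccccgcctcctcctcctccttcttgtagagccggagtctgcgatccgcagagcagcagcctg
Slc16a3: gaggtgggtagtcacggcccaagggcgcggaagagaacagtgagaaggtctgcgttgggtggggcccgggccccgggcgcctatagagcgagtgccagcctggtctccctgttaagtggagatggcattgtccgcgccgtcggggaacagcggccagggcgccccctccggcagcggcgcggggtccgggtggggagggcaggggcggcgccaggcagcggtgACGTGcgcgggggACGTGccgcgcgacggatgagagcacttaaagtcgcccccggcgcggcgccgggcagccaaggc
Slc16a1: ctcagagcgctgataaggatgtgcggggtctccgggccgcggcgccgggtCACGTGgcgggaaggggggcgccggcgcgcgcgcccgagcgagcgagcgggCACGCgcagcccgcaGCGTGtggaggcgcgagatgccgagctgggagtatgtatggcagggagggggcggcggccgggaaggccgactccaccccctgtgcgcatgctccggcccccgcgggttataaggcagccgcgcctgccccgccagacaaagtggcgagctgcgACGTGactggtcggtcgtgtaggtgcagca
Pdk1: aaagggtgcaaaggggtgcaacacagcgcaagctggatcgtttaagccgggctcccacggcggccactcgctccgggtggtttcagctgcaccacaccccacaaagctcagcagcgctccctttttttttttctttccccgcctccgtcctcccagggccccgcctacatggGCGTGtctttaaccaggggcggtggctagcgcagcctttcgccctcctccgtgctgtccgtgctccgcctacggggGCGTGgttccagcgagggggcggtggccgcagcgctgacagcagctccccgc

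These windows held 7 matches for Ldha, 1 for Ldhb, 2 for Slc16a3, 5 for Slc16a1 and 2 for Pdk1. At least 1 match was present in 43.8% of the 32851 promoter windows of the same length, and in 26 of the 33 listed genes that had a window, or 78.8%. Of the 16 members that were low in replicate 3 and passed, 12 held a match, and of the other 10 tested members with a window, 10 did. A match is a run of letters and not a known binding site. Slc2a3 had no window in the table.

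Ldha was at 4934.7, 4997.2 and 1166.5 in null samples, against 4677.2, 4149.7 and 895.9 in wild-type samples. Both replicate 3 arrays were far below the others (difference -2.18, adjusted p = 3.36e-05), and every null sample was slightly above its partner, by 0.077, 0.27 and 0.37 (genotype difference 0.24, SE 0.73). Ldhb was at 82.3, 185.1 and 161.5 in null samples, against 125, 174 and 241.3 in wild-type samples. Its replicate 3 arrays were not low, its replicate term did not pass (adjusted p = 0.281), and its genotype difference was -0.32 (SE 0.39). The other 3 probe sets of Ldhb, 2 of them too dim to test, gave differences of -0.74, 0.40 and 0.59.

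Slc16a3 was at 935.4, 690.8 and 124.4 in null samples, against 717.2, 447.7 and 202.3 in wild-type samples. Slc16a1 was at 74.7, 112.7 and 410.7 in null samples, against 16, 100.9 and 571.8 in wild-type samples. The 2 lactate transporters thus moved in opposite directions in replicate 3, by -1.98 for Slc16a3 (adjusted p = 4.77e-04) and by 2.62 for Slc16a1 (adjusted p = 6.15e-04). The mean replicate 3 signal was 0.234 times that of the other arrays for Slc16a3 and 6.46 times for Slc16a1. Their genotype differences were 0.12 (SE 0.70) and 0.39 (SE 0.95). The other probe set of Slc16a1 was too dim to test, at 13.9, 46.9 and 84.8 in null samples, against 37.3, 19.3 and 14.1 in wild-type samples. By that probe set sample 3 was the highest of the null group but the lowest of the wild-type group. Slc16a7, for MCT2, was also too dim to test, from 10.2 to 31.1 in null samples, against 7.2 to 51.7 in wild-type samples.

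Pyruvate dehydrogenase feeds pyruvate into the mitochondrial citric acid cycle, and PDK1 to PDK4 phosphorylate and stop it. Pdk1 was at 1874.8, 1960.4 and 237.1 in null samples, against 1818.9, 935.3 and 190.1 in wild-type samples. Pair 2 differed by 1.05, pairs 1 and 3 by 0.043 and 0.30, and both replicate 3 arrays were low (difference -2.81, adjusted p = 1.09e-05). The genotype difference was 0.46 (SE 0.92), and the other 3 probe sets gave 0.67, 1.00 and -0.44. Pdk3 was at 68.6, 114.2 and 126.6 in null samples, against 125, 134.7 and 10.3 in wild-type samples, so that its genotype difference of 0.50 (SE 0.65) turned to -0.33 without wild-type sample 3 and to -0.47 without both replicate 3 samples. Pdk2 and Pdk4 were too dim to test, at 14 to 70.8 and 8.3 to 44.6 in null samples, against 8.7 to 57.6 and 26.3 to 66.5 in wild-type samples.

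By their brightest probe sets, the catalytic subunits of pyruvate dehydrogenase kept their signal in replicate 3. Pdha1, for the E1 alpha subunit that the kinases phosphorylate, was at 311.3, 263.7 and 513.6 in null samples, against 244, 311.2 and 428.6 in wild-type samples. Both replicate 3 arrays were above the other 4 by both of its probe sets, but the replicate term did not pass (adjusted p = 0.214). Pdhb, for the E1 beta subunit, was at 446.1, 359.8 and 555.2 in null samples, against 436.9, 577 and 504.8 in wild-type samples, with no order by replicate or genotype. By the brightest probe sets, the genotype differences of Pdha1 and Pdhb were 0.12 (SE 0.36) and -0.17 (SE 0.31). The other probe set of Pdhb was dimmer, at 22.4, 60.5 and 42.7 in null samples, against 66.1, 91.2 and 47.3 in wild-type samples. By that probe set every null sample was below its partner (genotype difference -0.56), and sample 3 was the lowest of the wild-type group.

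**Figure D4:**
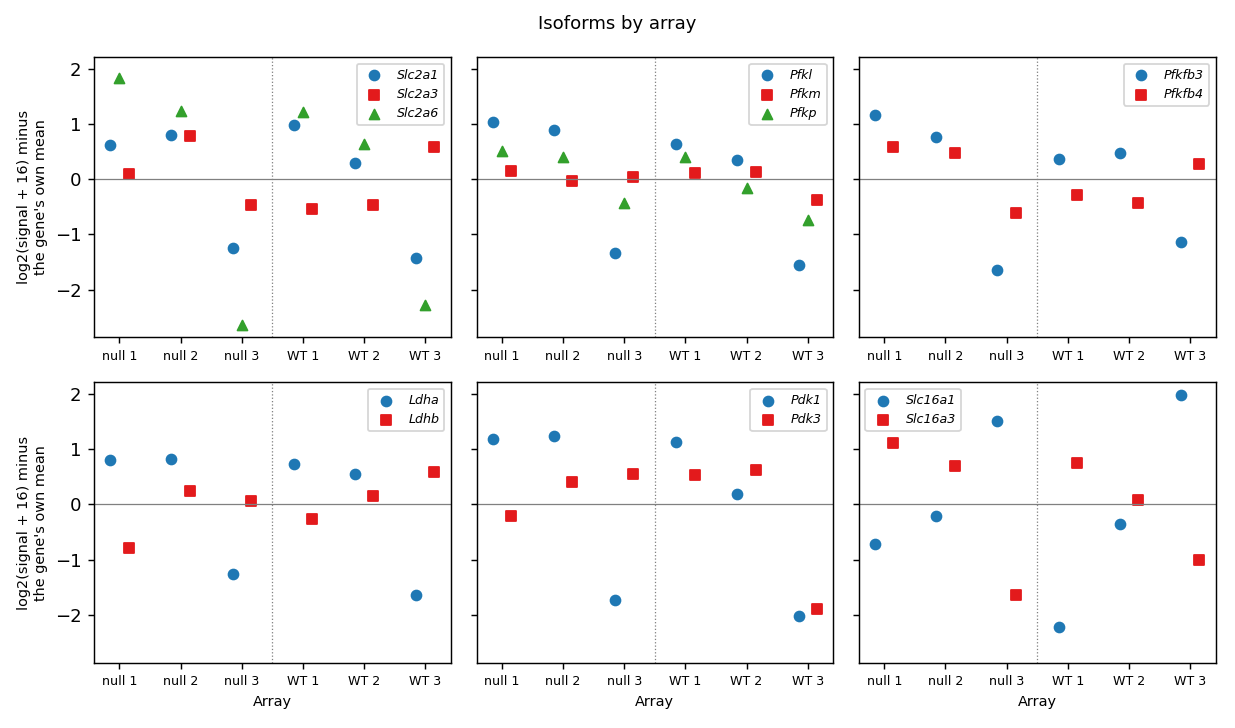
Deviation of log2(signal + 16) from each gene's own mean over the 6 arrays (y axis) for isoforms of 6 families, in phd3 null arrays 1 to 3 and wild-type arrays 1 to 3 (x axis). In replicate 3 Slc2a1, Slc2a6, Pfkl, Pfkp, Pfkfb3, Ldha, Pdk1 and Slc16a3 lie lowest in both genotypes, while Slc16a1 lies highest; levels of different probe sets are not compared.

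Isoforms were compared by the difference between their genotype differences, in the 17 combinations in which both genes of a family had been tested. In a two-sided exact permutation test of the genotype labels, which cannot go below p = 0.10 with 3 arrays against 3, none came below 0.2, and all adjusted p values were 1. The smallest was for Hk1 minus Hk3, at 0.43 (SE 0.24, exact p = 0.2), with pair differences of 1.04, 0.21 and 0.041. Pdha1 minus Pdhb differed by 0.28 (SE 0.23, exact p = 0.3), with pair differences of 0.30, 0.43 and 0.12. Ldha minus Ldhb differed by 0.56 (SE 1.31, exact p = 0.6), with pair differences of 0.60, 0.19 and 0.91. In these 3 combinations all 3 pairs had 1 sign, the form that gives the smallest p, 0.25, of a sign-flip test within pairs. The smallest exact p was 0.6 among the phosphofructokinases (Pfkl minus Pfkm, 0.29, SE 0.92), 0.8 among the glucose transporters (Slc2a1 minus Slc2a6, -0.17, SE 0.86) and 0.8 among the PFKFB genes (Pfkfb2 minus Pfkfb4, -0.15, SE 0.59). It was 0.8 for Aldoa minus Aldoc (-0.59, SE 1.64), 0.9 for Slc16a1 minus Slc16a3 (0.28, SE 2.31) and 1 for Pdk1 minus Pdk3 (-0.032, SE 1.18).

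Adding the replicate number to the fit narrowed the members' errors. The median SE of the members' genotype differences was 0.65 without the block and 0.25 with it, beside 0.44 and 0.37 over all tested genes. The replicate block changed no member's call, and the members' adjusted p values with it ran from 0.880 to 0.992.

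Other genes of glucose and pyruvate handling that are not among the members were tested in 16 of 28 cases, and 0 passed between genotypes in either direction. Of these 16, 11 were above 0 and 5 below, with a median of 0.19, beside 49.4% above 0 and a median of -0.0065 over all tested genes. The 2 genes of smallest p above 0 were Slc16a4, an orphan monocarboxylate carrier (1.04, SE 0.47), at 97, 76.1 and 104.3 in null samples, against 41.3, 58.2 and 17.9 in wild-type samples, and the sugar carrier gene Slc2a12 (0.55, SE 0.46). The 2 of smallest p below 0 were Adpgk, the ADP-dependent glucokinase (-0.71, SE 0.39), at 54.1, 42 and 53.8 in null samples, against 107.6, 71.8 and 98.1 in wild-type samples, and the testis Gapdh paralog Gapdhs (-0.29, SE 0.32). Slc16a4 and Adpgk did not overlap between genotypes, as was so for 6.92% of all tested genes. The replicate term passed for 3 of the 16, against 11.1% of all tested genes. Bsg, the chaperone that carries MCT1 and MCT4 to the membrane, was lower in replicate 3 (-1.43, adjusted p = 0.00143), as was Txnip, an inhibitor of glucose uptake (-1.16, adjusted p = 0.00984). Bpgm, the red cell enzyme of 2,3-bisphosphoglycerate, was at 440.3, 2654 and 4361.5 in null samples, against 1682.8, 3544.5 and 2982.5 in wild-type samples (adjusted p = 0.00395). Of the 3 erythroid markers measured, Alas2 had the same order of arrays, at 565.4, 3405.6 and 6348.5 in null samples, against 2370.6, 5529.7 and 4110.8 in wild-type samples. Slc4a1 and Hba-a1 did not. Slc4a1 was highest in wild-type sample 3 (584.5) and Hba-a1 in null sample 2 (119.6). A part of red cells in the Bpgm signal was not tested.

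Genes for the entry of pyruvate into mitochondria were tested in 9 of 11 cases, and 0 passed between genotypes (3 above 0, 6 below, median -0.18). The 2 of smallest p above 0 were Vdac1, the main channel of the outer membrane (0.74, SE 0.53), higher in 3 of 3 pairs, and Pdpr, a regulator of the pyruvate dehydrogenase phosphatase (0.089, SE 0.36). Vdac1 also passed for the replicate term (adjusted p = 0.00223, difference -1.45), the 1 gene of the list to do so, against 11.1% of all tested genes. Below 0 they were Dlat and Dld, for the E2 and E3 subunits of the complex, at -0.49 (SE 0.43) and -0.45 (SE 0.41), each lower in 3 of 3 pairs. Dlat did not overlap between genotypes, at 39.5, 59.3 and 50.9 in null samples, against 62.4, 64.3 and 106.6 in wild-type samples. Of all tested genes, 6.92% did not overlap.

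Markers of other cells also moved with replicate 3. The neutrophil calprotectin gene S100a8 was bright in every array, between 11102.8 and 20428.6 in null samples, against 17949 to 25479.7 in wild-type samples. Of 15 neutrophil markers 11 were measured, with a summed signal of 26990.4 to 50595.3 in null samples, against 44465.1 to 56950.4 in wild-type samples. Of these 11, 4 (Csf3r, Cxcr2, Mmp8 and Ngp) had both replicate 3 arrays below the other 4, 1 (Il1r2) had both above, and the others overlapped. The lowest replicate 3 difference was that of the chemokine receptor gene Cxcr2, at 840.1, 978.9 and 25.6 in null samples, against 558.9, 836.6 and 227 in wild-type samples. Il1r2, for the decoy receptor of interleukin 1, was at 727.1, 642.4 and 1187.2 in null samples, against 1129.8, 343.5 and 1860.6 in wild-type samples. Of 8 monocyte or macrophage markers 6 were measured, with a summed signal of 12168, 13993.3 and 5889.2 in null samples, against 14829, 13775.5 and 6693.9 in wild-type samples. Most of that sum was Csf1r, the macrophage growth factor receptor gene, at 8835.9, 10857.8 and 3537.6 in null samples, against 11088.3, 10045.5 and 4048.6 in wild-type samples. The sum was lowest in replicate 3 of each genotype, as most members were, with both replicate 3 arrays below the other 4 for 3 of the 6 markers (Csf1r, Adgre1 and Cd68) and above for 1 (Nr4a1). B cell markers (7 of 8 measured) ran the other way, with sums of 350.6, 780.5 and 6022.5 in null samples, against 333.8, 1082.3 and 4877.6 in wild-type samples, highest in replicate 3 like Slc16a1. Both replicate 3 arrays were above the other 4 for 6 of the 7 markers, but not for Pax5, which was highest in null sample 2 (165.5). T cell markers (8 of 8) were also highest in replicate 3 of each genotype, with sums of 278.9, 337.1 and 826.9 in null samples, against 162.6, 565.6 and 728.3 in wild-type samples. Erythroid markers (3 of 7 measured) summed to 750.1 to 6831 in null samples, against 2610.2 to 5977.5 in wild-type samples. Natural killer cell markers (7 of 8) summed to 546.6, 2706.1 and 2143 in null samples, against 1355.3, 5755 and 3240.7 in wild-type samples. That sum was lower in the null sample of every pair. All 7 markers had a genotype difference below 0 (median -0.82), and 4 were lower in all 3 pairs, where 13.1% of all tested genes were. None of the 7 passed between genotypes, with or without the block. Eosinophil or basophil markers (7 of 7) summed to 228.5 to 389.2 in null samples, against 163 to 311.5 in wild-type samples, and platelet markers (5 of 6) to 348.9 to 551.9, against 329.5 to 376.5. No measured marker was listed at 0. The part of these cells in the members' signals was not tested, and in bulk RNA fewer cells of a type and less RNA per cell cannot be told apart.

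**Figure D5:**
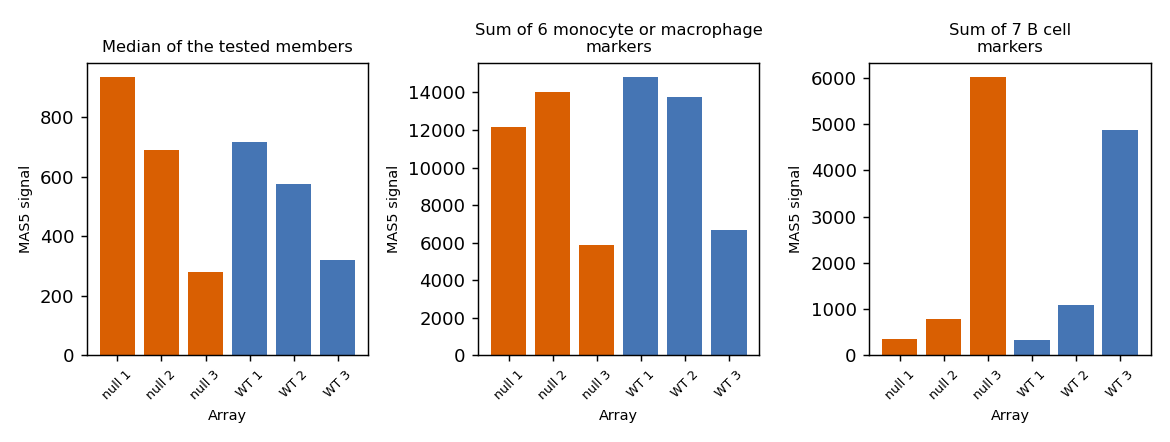
MAS5 signal (y axes, from 0) in phd3 null arrays 1 to 3 (orange) and wild-type arrays 1 to 3 (blue): the median of the 27 tested members, the summed signal of 6 monocyte or macrophage markers and that of 7 B cell markers. The member median and the monocyte or macrophage sum are lowest in replicate 3 of each genotype, where the B cell sum is highest.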

How the data were processed

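The authors deposited linear signal intensities that their processing notes credit to MAS5, whose version those notes do not state. The deposited intensities had nearly the same mean on each array (99.5 to 99.6) after 2% of probe sets were removed at each end, so a shift shared by most genes cannot be seen. No detection calls were used. Of 45101 probe sets 64 were controls, left out except for Gapdh. Of the others, 34945 had 1 gene symbol, 932 had several and 9160 were unnamed here. Each gene was taken from its brightest probe set, and genes with a mean log2(signal + 16) under the median of non-control probe sets, 5.90, were not tested, leaving 10960. Dim members were fitted with no such filter.

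Genotypes were compared with limma 3.58.1 in R 4.3.3 (two-sided, trended prior variance, no block), with Benjamini-Hochberg adjustment over all genes tested. The code was checked on simulated data. The replicate term is the limma F test of the replicate number beside genotype. After subtracting group means, arrays with the same number correlated at 0.292, 0.151 and 0.474. The source labels also give them a shared code, and so they were treated as pairs. Members and lists were chosen with earlier results of these data known, including low Ldha, Pdk1 and Gapdh in replicate 3. All members are named, with values in every array for those past a threshold, with 1 sign in all pairs, or in a tested family. The number of arrays limits the precision.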

Additional observations from a re-analysis of the deposited data

How the results depend on the processing

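Alternatives were pseudocounts of 1 and 64, no filter, quantile normalization, averaged or separate probe sets, no trend, array weights, the replicate block, and leaving out each array or replicate, the last chosen after seeing the data for the replicate term, as were the kept control probe sets that give Gapdh. No member was called between genotypes under any of them. Over all genes 0 were called with all arrays and no block, 2 with the replicate block, 4 with the block and a pseudocount of 64, 1 with the block and quantile normalization, 0 in the other 2 block settings, and 0 to 1 with arrays left out. Egln3 passed in these 3 block settings (log2 fold change -3.85, -3.20 and -3.85) and ran from -4.81 to -3.14 with arrays left out, passing without replicate 3 and without wild-type sample 3. The block changed no member's call. The member median ran from -0.31 to 0.62 with arrays left out, and from 0.10 to 0.17 where both arrays of a replicate were left out. Of the isoform combinations, 0 passed after adjustment in the main setting and in 5 alternatives. At the smallest possible exact p there were 0 in the main setting and 0 to 3 in the alternatives. The replicate term called 602 genes with averaged probe sets (13 members), and 0 genes and 0 members without the trend. With arrays left out it called 107 to 1761 genes and 0 to 18 members, the lowest of each without replicate 3, where the contrast is of replicates 1 and 2 alone. The cause of the other changes was not tested.

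Genotype differences changed sign for Pkm (0.15 with quantile normalization, with or without the block, and 0.13 with array weights), Pfkp (-0.16 with averaged probe sets, with or without the block), Hk3 (0.012 with array weights) and Pdha1 (-0.015 with array weights). With arrays left out, most changed sign, with ranges of Aldoa -0.57 to 0.84, Hk1 -0.054 to 0.72, Hk2 -0.31 to 1.32, Hk3 -0.57 to 0.28, Ldha -0.52 to 0.93, Pdha1 -0.15 to 0.32, Pdhb -0.32 to 0.081, Pdk1 -0.43 to 1.44, Pdk3 -0.47 to 1.11, Pfkfb2 -0.072 to 0.39, Pfkfb3 -0.34 to 1.07, Pfkfb4 -0.010 to 0.88, Pfkl -0.30 to 1.15, Pfkm -0.063 to 0.23, Pgam1 -0.45 to 0.65, Pgk1 -0.93 to 0.55, Pkm -0.48 to 0.54, Slc16a1 -0.62 to 1.48, Slc16a3 -0.42 to 0.96, Slc2a1 -0.58 to 0.76, Slc2a3 -0.21 to 0.94, Slc2a6 -0.78 to 1.67, Tpi1 -0.49 to 1.45. The ranges of Aldoc 0.06 to 1.29, Eno3 0.06 to 0.49, Ldhb -0.54 to -0.01, Pfkp 0.04 to 0.62 did not cross 0. These ranges pool single arrays, which leave a replicate unbalanced, with whole replicates. Of the genes that changed sign, Hk1, Ldha, Pdha1, Pdk1, Pfkl, Pgk1, Slc2a6 and Tpi1 did so only with single arrays left out. The others also changed sign with a whole replicate left out. Tpi1 was at 0.58, 0.35 and 0.49 without replicates 1, 2 and 3.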

Other observations

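A few probe sets carry the name of a member beside other genes and were kept out of the counts. The probe set shared by Gapdh and 4 related or pseudogene symbols was at 7290, 9052.6 and 5233.6 in null samples, against 9956.5, 9301 and 5761.5 in wild-type samples, lowest in replicate 3 of each genotype like the Gapdh control probe sets. Dimmer probe sets shared by Gapdh and Gapdh-ps15 alone were mixed. The first was lowest in replicate 3 of each genotype (128.5 in null, 28.5 in wild type). The second was at 196.4, 139.1 and 147.2 in null samples, against 177.6, 133.6 and 108.5 in wild-type samples. The one shared by Hk1 with the ribosomal protein gene Rpl17 and its pseudogenes was at 3335.3, 3780 and 7006.6 in null samples, against 2989.3, 4052.4 and 6281.1 in wild-type samples, highest in replicate 3, where both probe sets of Hk1 alone were lowest. Probe sets of 1 gene disagreed in the sign of the genotype difference for 5 of the 15 members with several tested probe sets (Hk3, Pdk1, Pfkfb2, Pfkl and Pfkp).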
